A study of Mus musculus with 30 samples.

Results

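The genes described are the potassium channel genes of the mouse, taken as every protein-coding gene whose symbol consists of Kcn, further letters and, where present, a number. This rule gave 93 genes of the 32316 genes to which transcripts of the deposited tables could be assigned. By symbol, 40 belonged to the voltage-gated class with its modifier subunits, 8 to the calcium- or sodium-activated class, 15 to the inward rectifiers, 14 to the two-pore channels and 16 to the accessory subunits. Their transcripts were measured by bulk RNA-seq in 10 mesenchymal stromal cell populations sorted by flow cytometry from the lamina propria of small intestine (SI) and colon, with 3 libraries per population and 30 in all. The labels name 3 individual mice and the paper 3 independent sorts, with the subsets of both tissues sorted from the same mice. Neither states that a library is 1 mouse, or which libraries share one. The study set out to compare fibroblast (FB) subsets, pericytes and smooth muscle cells (SMC) within and between both tissues. The mice were untreated C57BL6/Nrj animals aged 8 to 10 weeks, and the external muscle coat had been removed. The sum of estimated counts per library ranged from 2245052 in replicate 3 of SI Fgfr2+ FB to 19096945, with a median of 9601683.

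Dead cells, cells with lineage markers, and cells positive for CD31, BP3 or EpCAM or high for NCAM had been gated out. Pericytes of both tissues were PDGFRα-ESAM-1+PDPN-, and SMC, sorted from the SI, were PDGFRα-ESAM-1+PDPN+. FB were negative for ESAM-1. In the SI, CD34+ FB were PDGFRα intCD34+ and include CD81+ and Igfbp5+ FB, Fgfr2+ FB were PDGFRα intCD34-, and PDGFRα hi FB were CD34-. In the colon, PDGFRα hi FB were PDPN+CD34-, Fgfr2+ FB were PDPN hiCD34+CD90-, CD90+ FB were PDPN hiCD34+CD90+, and CD81+ FB were PDPN intCD34+CD90-. Because FB of the same name were gated differently in each tissue, tissue and gate cannot be told apart in any comparison of FB between SI and colon.

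Potassium channels let potassium leave the cell or, in inward rectifiers, set the resting potential near the potassium equilibrium, and their opening makes a cell less likely to admit calcium through voltage-gated calcium channels. In smooth muscle and pericytes this lowers tone, and the classes differ in what opens them: voltage, intracellular calcium or sodium, the ATP to ADP ratio, stretch or pH. In the gut wall, calcium-activated channels of PDGFRα+ cells and ATP-sensitive channels of mural cells are known for their part in inhibitory signalling to muscle and in blood flow.

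The populations carried the markers of their labels. The summed level of 7 pericyte genes (*Rgs5*, *Pdgfrb*, *Cspg4*, *Notch3*, *Mcam*, *Ndufa4l2* and *Higd1b*), in counts scaled to library size by TMM normalization (CPM), was 52400, 33800 and 43500 in the 3 libraries of SI pericytes and 37900, 52300 and 33200 in those of colonic pericytes, here and below in the order of the replicate numbers. It was lower in every other library, the highest being SMC with 4670, 4230 and 7820 CPM. SI CD34+ FB also held 4130, 4390 and 3740 CPM of these genes, most of it *Rgs5*. The 7 SMC genes (*Myh11*, *Acta2*, *Actg2*, *Des*, *Cnn1*, *Tagln* and *Smtn*) summed to 21700, 17600 and 21200 CPM in SMC, against 10500, 11600 and 11800 in colonic pericytes, 4590, 3200 and 3400 in SI pericytes and 2490, 3920 and 2680 in SI PDGFRα hi FB. The 6 FB genes (*Pdgfra*, *Dcn*, *Lum*, *Col1a1*, *Col3a1* and *Dpt*) summed to more than in SMC and pericytes in all 7 FB populations, from 16700, 14000 and 13700 CPM in SI Fgfr2+ FB to 84900, 41600 and 59500 CPM in SI CD34+ FB.

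Markers of cells outside the gates were low in most libraries. The 6 epithelial genes stayed at or below 5.88 CPM except in replicate 2 of SI pericytes (28.9 CPM) and of colonic pericytes (32.5 CPM), with *Epcam* at 0 in all 3 libraries of both. The 7 haematopoietic genes summed to 204, 4.92 and 24.4 CPM in SI pericytes, led by *Cd79a*, with *Cd52* and *Tyrobp* at 0, and to 7.42, 96.4 and 6.47 CPM in colonic pericytes, led by *Lyz2*, with *Laptm5*, *Tyrobp* and *Cd3e* at 0. The 3 mesothelial genes did not exceed 7.58 CPM, and the 6 endothelial genes were highest in colonic CD81+ FB (381, 372 and 315 CPM, led by *Tek*). Of the 10 glial and neuronal genes, *Ncam1* made up nearly all of the sum in FB and in SMC (1030, 1220 and 3840 CPM), while *Gfap* was at 0 in SMC. The 3 genes of interstitial cells of Cajal (*Kit*, *Ano1* and *Etv1*) reached 1160, 584 and 742 CPM in SI and 808, 901 and 687 CPM in colonic pericytes. *Ano1* was the most abundant in both. They summed to 476, 427 and 504 CPM in SI and 230, 291 and 238 CPM in PDGFRα hi FB of the colon, led by *Etv1*.

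Of the 93 channel genes, 68 passed the filter of 6 counts in 3 libraries, namely 26 voltage-gated, 8 calcium- or sodium-activated, 12 inward rectifier, 8 two-pore and 14 accessory genes. No count was found for 8 genes, 4 of them voltage-gated (*Kcna10*, *Kcnf1*, *Kcnh8* and *Kcnv1*) and 4 two-pore (*Kcnk9*, *Kcnk12*, *Kcnk15* and *Kcnk16*). A further 17 had counts but were not tested, at no more than 1.78 CPM on average in any population. Altogether 48 genes reached a mean of 5 CPM in a population. Summed over all 93 genes, the mean was highest in SI PDGFRα hi FB, at 2565, 2767 and 2221 CPM. SI pericytes, at 2769, 1225 and 1533 CPM, and colonic pericytes, at 1658, 2303 and 1668 CPM, overlapped them. Per kilobase of transcript, SI PDGFRα hi FB, SI pericytes and colonic pericytes had similar means (737.5, 740.2 and 715.7 CPM per kb). The mean was lowest in colonic CD90+ FB, at 616.5, 632.7 and 665 CPM, and PDGFRα hi FB of the colon, at 561.7, 778.2 and 591.2 CPM, reached below them. The 4 colonic FB populations, with 638.1 to 731 CPM on average, all lay below the 3 SI FB populations. In bulk RNA, fewer cells with a transcript and less of it per cell cannot be told apart, which holds for every level given here.

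**Figure D1:**
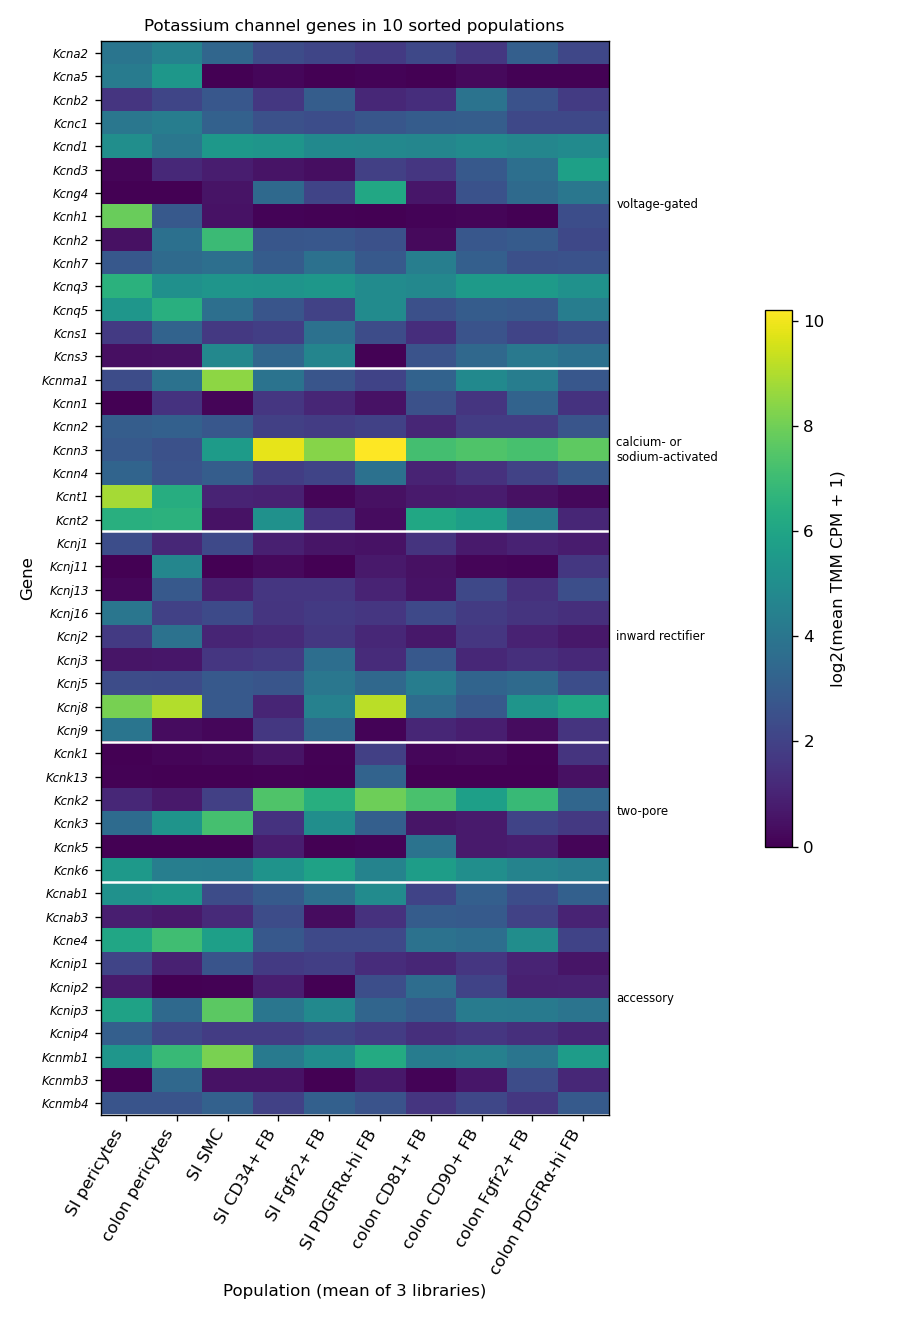
Heat map of the mean level of 46 potassium channel genes (vertical axis, grouped by class) in the 10 sorted populations (horizontal axis), coloured by log2 of the mean CPM of 3 libraries plus 1. *Kcnn3* was highest in SI FB, *Kcnt1* in SI pericytes, *Kcnma1* and *Kcnmb1* in SMC, and *Kcnj8* in pericytes and SI PDGFRα hi FB.

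The leading channel transcript differed between populations, and some populations shared one. To compare genes with each other, levels were divided by the effective transcript length in kilobases (CPM per kb). On this scale *Kcnt1* led in SI pericytes (296 ± 113 CPM per kb, mean ± SD of 3 libraries), followed by *Kcnj8* (123 ± 76.7). In colonic pericytes *Kcnj8* led (252 ± 150.3 CPM per kb). In SMC *Kcnip3* (139 ± 155 CPM per kb) had the highest mean but a spread larger than that mean, and *Kcnma1* followed (102 ± 6.08). *Kcnn3* led in SI CD34+ FB (175 ± 23.9 CPM per kb) and SI Fgfr2+ FB (56 ± 9.97), and in SI PDGFRα hi FB *Kcnj8* (269 ± 64.8) and *Kcnn3* (211 ± 28.3) lay within their spread. In the colon, *Kcnk2* had the highest mean per kb in CD81+ FB (59.2 ± 37.4) and Fgfr2+ FB (44.5 ± 11.4), and *Kcnn3* in CD90+ FB (20.3, 31.8 and 38 in the 3 libraries) and PDGFRα hi FB (38.1 ± 10.9).

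Differences were tested with edgeR in 1 model of all 30 libraries, and a gene was called at an adjusted p below 0.05 with an absolute log2 fold change above 1.5. Pericytes differed from FB in 24 of the 68 tested channel genes. Of these, 16 (23.5% of those tested) were higher, *Kcnt1* and *Kcnj8* among them, against 9.05% of all 17542 genes tested. The other 8 (11.8%), among them *Kcnn3* and *Kcnk2*, were lower, close to the share over all genes (9.25%). The calls of *Kcna5*, *Kcnd3*, *Kcng4*, *Kcnip2* and *Kcnk5* among the 24 are not used below. SMC differed from SI FB in 12 genes, with 9 higher (3.42% of all genes), *Kcnma1*, *Kcnmb1* and *Kcnk3* among them, and 3 lower (1.74%). Against SI pericytes, SMC had 7 genes higher (5.35%) and 5 lower (4.79%). PDGFRα hi FB differed from Fgfr2+ FB of the same tissues in 8 genes, 5 higher (1.33%) and 3 lower (1.66%). In the comparison of FB populations that contain CD81+ FB with the other FB, 2 genes were higher (3.29%) and 2 lower (1.31%), close to the share over all genes for the first direction. Without regard to size, 35 of the 68 genes differed among the 10 populations at an adjusted p below 0.05, against 26.4% of all genes. This test is not counted as a call below. It included *Kcna6* (adjusted p = 0.00436), *Kcng1* (0.00472), *Kcnk6* (0.0352), *Kcnmb2* (0.0355), *Kcnh4* (0.0409) and *Kcnmb3* (0.0442), which no comparison between populations called. With the replicate number as a block 28 genes differed, all among the 35, and 28 differed without replicate 2 of SI PDGFRα hi FB. DESeq2 found 42, of which 31 were among the 35. The median log2 difference of the 68 genes between pericytes and FB was 0.06, against -0.03 over all genes.

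Between the tissues, 4 channel genes were higher and 1 lower in SI than in PDGFRα hi FB of the colon, against 0.336% and 0.627% of all genes. In Fgfr2+ FB 2 were higher in the SI (0.513% of all genes). None was lower by edgeR (0.941% of all genes), where 8 were lower at an unadjusted p below 0.05 and DESeq2 called 4. Pericytes of the SI had 1 gene higher (2.98%) and 4 lower (2.74%) than colonic pericytes. That last comparison depended on the fit: with the 6 pericyte libraries alone, where 40 channel genes were tested, edgeR called 0 channel genes and 0 of all genes, with 8 channel genes at an unadjusted p below 0.05, while DESeq2 on all libraries called 9. Pericytes also varied most between replicates, with a biological coefficient of variation of 1.23 in SI and 1.09 in colonic pericytes, against 0.226 in SI CD34+ FB. Leaving out replicate 1 of SI pericytes left 1 of the 5 calls. Whether the difference between pericytes and FB itself differed between the tissues was tested directly, and 5 genes did so, against 3.76% of all genes. The difference between PDGFRα hi FB and Fgfr2+ FB depended on the tissue for 2 genes (0.661% of all genes).

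*Kcnn3*, which encodes the small-conductance calcium-activated channel SK3, was the most highly expressed member in CPM and a transcript of FB. It reached 1241, 1186 and 1117 CPM in SI PDGFRα hi FB, 1068, 824 and 848 CPM in SI CD34+ FB and 377, 318 and 274 CPM in SI Fgfr2+ FB. The colonic subsets had 177, 256 and 171 CPM in PDGFRα hi FB, 214, 100.1 and 116 in CD81+ FB, 100, 172 and 225 in CD90+ FB and 96.7, 131 and 218 in Fgfr2+ FB. Every SI FB library lay above every colonic FB library. SMC held 46.6, 69.3 and 27.3 CPM, and pericytes 3.65, 7.83 and 7.01 CPM in the SI and 8.39, 2.52 and 3.66 CPM in the colon, so that the 21 FB libraries, the 3 SMC libraries and the 6 pericyte libraries formed separate ranges. In edgeR, the log2 difference of pericytes from FB was -5.94 ± 0.35 (SE; adjusted p = 6.55e-14) and that of SMC from SI FB -3.88 ± 0.43 (adjusted p = 2.7e-07). SMC exceeded SI pericytes by 2.94 ± 0.45 (adjusted p = 3.59e-05), a call that a fit of those 6 libraries alone did not give (adjusted p = 0.133). The 6 FB markers moved with it, at 6880, 6210 and 10300 CPM in SMC and 3940, 3090 and 2650 CPM in SI pericytes, led by *Col1a1* and *Col3a1*, with none at 0 and 3 of 6 called higher in SMC. Their part in the *Kcnn3* difference was not tested. SI PDGFRα hi FB exceeded their colonic counterparts by 2.55 ± 0.43 on the log2 scale (edgeR, adjusted p = 0.000749).

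The annotation qualifies these *Kcnn3* levels. Only 24.5% of its estimated counts fell on its protein-coding transcript, and the remaining 75.5% on a transcript that keeps an intron and is annotated as not coding. Counting the coding transcript alone, SI PDGFRα hi FB had 319.5, 303 and 165 CPM, SI CD34+ FB 279.7, 218 and 251 CPM and SI Fgfr2+ FB 84.3, 47.7 and 63.4 CPM. Colonic FB lay between 20.8 and 76.7 CPM, SMC at 11.6, 14.9 and 14.3 CPM, and the pericyte libraries between 0 and 4.88 CPM. The difference of pericytes from FB depended on the tissue in edgeR for all transcripts (log2 -1.75 ± 0.49, adjusted p = 0.0427), but this call was lost in 13 of 27 fits that left out 1 library and turned to 2.58 (adjusted p = 0.0507) with the coding transcript alone. It was also lost with the replicate number as a block (-1.73, adjusted p = 0.0646) and with length-scaled counts (-0.751, adjusted p = 0.448).

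The large-conductance BK channel, opened by calcium and depolarization, was a transcript of SMC. Its pore gene *Kcnma1* reached 376, 324 and 363 CPM there, against 1.29, 1.64 and 9.72 CPM in SI pericytes and 16.5, 2.65 and 20.8 CPM in colonic pericytes. Among FB it was highest in colonic CD90+ FB (40.0, 20.6 and 22.4 CPM). Means elsewhere were 13.7 ± 2.62 CPM in SI CD34+ FB, 5.45 ± 0.482 in SI Fgfr2+ FB, 3.18 ± 1.73 in SI PDGFRα hi FB, 8.18 ± 1.83 in colonic CD81+ FB, 19.3 ± 8.76 in colonic Fgfr2+ FB and 5.8 ± 4.03 in PDGFRα hi FB of the colon. All 3 SMC libraries exceeded every other library by a wide margin. In edgeR the log2 difference of SMC was 5.83 ± 0.52 from SI FB (adjusted p = 4.45e-09) and 6.37 ± 0.84 from SI pericytes (adjusted p = 3.68e-06). The latter was 7.89 without replicate 3 of SI pericytes. The annotated exons of *Kcnma1* share 6% of their bases with a gene on the other strand, and without strand information their reads cannot be told apart.

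*Kcnmb1*, the beta subunit that raises the calcium sensitivity of BK in smooth muscle, had 274, 184 and 391 CPM in SMC. Colonic pericytes followed with 135, 139 and 79 CPM, then SI PDGFRα hi FB with 55.3, 83 and 83.3 CPM, PDGFRα hi FB of the colon with 43.5, 45.4 and 58.2 CPM and SI pericytes with 41, 26.5 and 53.3 CPM. The means of the other FB were 17.1 ± 2.89 CPM in SI CD34+ FB, 30.2 ± 13 in SI Fgfr2+ FB, 18.5 ± 8.54 in colonic CD81+ FB, 20.8 ± 4.25 in colonic CD90+ FB and 14.5 ± 2.36 in colonic Fgfr2+ FB. SMC did not overlap any other population. The log2 difference of SMC in edgeR was 3.07 ± 0.31 from SI FB (adjusted p = 4.42e-08) and 2.81 ± 0.45 from SI pericytes (adjusted p = 5.97e-05). PDGFRα hi FB exceeded Fgfr2+ FB by 1.53 ± 0.30 (edgeR, adjusted p = 0.00166), a size near the threshold of 1.5. The call was lost in 6 of 12 fits without 1 library (adjusted p 0.00515 to 0.00867), with DESeq2, in 4 other settings and in the SI alone. Across all alternatives the log2 value ranged from 1.3 to 1.76. The adjusted p reached 0.125, so size alone did not decide every loss. SMC markers were at 2490, 3920 and 2680 CPM in SI PDGFRα hi FB (led by *Myh11*) and 884, 934 and 605 CPM in SI Fgfr2+ FB (led by *Acta2*). In the colon they were at 1570, 1400 and 2500 and 365, 320 and 547 CPM, led by *Acta2*, with none at 0 in any of the 4. Of the 7, 3 were called higher and 1 lower in PDGFRα hi FB, and their part was not tested.

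SI pericytes had less *Kcnmb1* than colonic pericytes, with a log2 difference of -1.55 ± 0.43 (edgeR, adjusted p = 0.031) and no overlap. The call was lost without replicate 1 (adjusted p = 0.0694) or 2 (0.0756) of colonic pericytes or replicate 1 (0.0654) or 2 (0.0906) of SI pericytes. It was also lost without the count filter (0.0564) and in a fit of the 6 pericyte libraries alone (0.609), and RLE normalization and DESeq2 gave a size of -1.5 that did not pass the threshold. The 7 SMC markers moved with it, at 4590, 3200 and 3400 CPM in SI and 10500, 11600 and 11800 CPM in colonic pericytes, with *Myh11* the most abundant in both, none of the 7 at 0, and 2 of 7 called lower in SI pericytes. The part of SMC transcripts in the difference was not tested. The difference of pericytes from FB depended on the tissue, with a log2 value of -2.10 ± 0.48 (edgeR, adjusted p = 0.0135).

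The other BK beta subunits were low. *Kcnmb4*, known from neurons, had 7.88 ± 2.06 CPM in SMC, 7.68 ± 5.13 in SI Fgfr2+ FB, 6.39 ± 2.78 in PDGFRα hi FB of the colon, 5.16 ± 4.47 in SI PDGFRα hi FB, 5.29 ± 0.759 in SI pericytes and 5.2 ± 1.74 in colonic pericytes. The remaining means were 2.88 ± 0.429 CPM in SI CD34+ FB, 1.95 ± 1.2 in colonic CD81+ FB, 3.53 ± 1.43 in colonic CD90+ FB and 2.18 ± 0.832 in colonic Fgfr2+ FB. *Kcnmb3* averaged 10.0 ± 17.3 CPM in colonic pericytes and 4.21 ± 6.29 in colonic Fgfr2+ FB, each resting on replicate 1 (30.01 and 11.47 CPM). The rest averaged 0 ± 0 CPM in SI pericytes, 0.394 ± 0.439 in SMC, 0.426 ± 0.656 in SI CD34+ FB, 0 ± 0 in SI Fgfr2+ FB, 0.588 ± 0.515 in SI PDGFRα hi FB, 0.0833 ± 0.144 in colonic CD81+ FB, 0.515 ± 0.446 in colonic CD90+ FB and 1.21 ± 0.199 in PDGFRα hi FB of the colon. Neither was called. Of the *Kcnmb4* counts, 1.9% lay on protein-coding transcripts, and 20.8% of its exon bases are shared with a gene on the other strand. *Kcnmb2* did not reach 5 CPM on average in any population.

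The sodium-activated channel Slack, encoded by *Kcnt1*, separated pericytes from all other populations. SI pericytes had 629, 356 and 392 CPM and colonic pericytes 71.3, 63 and 107 CPM. The other libraries lay between 0 and 2.64 CPM, and means were 1.01 ± 1.42 CPM in SMC, 0.903 ± 0.519 in SI CD34+ FB, 0.115 ± 0.2 in SI Fgfr2+ FB and 0.375 ± 0.255 in SI PDGFRα hi FB. Colonic means were 0.67 ± 0.862 CPM in colonic CD81+ FB, 0.713 ± 1.02 in colonic CD90+ FB, 0.36 ± 0.536 in colonic Fgfr2+ FB and 0.177 ± 0.209 in PDGFRα hi FB of the colon. No pericyte library overlapped any other, and the lowest, at 63.0 CPM, was far above the highest of the rest, at 2.64 CPM. Pericytes exceeded FB in edgeR with an adjusted p of 8.33e-13, in each of 37 alternatives. The log2 difference of SMC from SI pericytes was -8.82 ± 1.37 (edgeR, adjusted p = 4.41e-05). It was -11.1 without replicate 1 and -8.19 without replicate 3 of SMC. SI CD34+ FB, which carried *Rgs5*, held no more than 1.48 CPM of *Kcnt1*. Protein-coding transcripts took 27.2% of the *Kcnt1* counts, at 203, 39 and 113 CPM in SI and 6.67, 27.6 and 49.8 CPM in colonic pericytes.

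Its relative *Kcnt2*, the sodium-activated channel Slick, was present in pericytes and in a part of the FB. Pericytes had 24.1, 138 and 98.2 CPM in the SI and 100.5, 122 and 56 CPM in the colon. Colonic CD81+ FB had 62.6, 49.1 and 90.2 CPM, colonic CD90+ FB 67.6, 47.4 and 38.4 CPM, SI CD34+ FB 35.8, 48.6 and 21.4 CPM and colonic Fgfr2+ FB 18.9, 16.2 and 22.3 CPM. It was low in SI Fgfr2+ FB (4.26, 0.181 and 1.04 CPM), in PDGFRα hi FB of SI (0, 0.113 and 0.689 CPM) and colon (0.123, 2.94 and 0.272 CPM), and in SMC (0.316, 0.578 and 0.33 CPM). In edgeR, pericytes exceeded FB by 3.77 ± 0.43 (adjusted p = 6.98e-08) and populations with CD81+ FB exceeded other FB by 4.16 ± 0.50 (adjusted p = 9.12e-07). SMC lay below SI pericytes with a log2 difference of -7.68 ± 1.15 (adjusted p = 2.49e-05). PDGFRα hi FB lay below Fgfr2+ FB with -3.47 ± 0.70 (edgeR, adjusted p = 0.00214), which was lost without replicate 1 of SI Fgfr2+ FB (adjusted p = 0.0867), with length-scaled counts (0.0615) and in the SI alone (0.19). Without replicate 2 of PDGFRα hi FB of the colon or 3 of the SI it was -4.69 or -4.3. Of the 7 pericyte markers, 3 were called lower and 0 higher in PDGFRα hi than in Fgfr2+ FB (median log2 -2.74), and their part was not tested.

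The remaining genes placed by symbol in the calcium- or sodium-activated class were not called. *Kcnn1* (SK1) averaged 8.59 ± 11.6 CPM in colonic Fgfr2+ FB and 4.71 ± 6.9 in colonic CD81+ FB, led by single libraries of 21.8 and 12.7 CPM. Other populations averaged 0 ± 0 CPM in SI pericytes, 0.109 ± 0.11 in SMC, 2.03 ± 1.37 in SI CD34+ FB, 1.14 ± 1.91 in SI Fgfr2+ FB, 0.432 ± 0.226 in SI PDGFRα hi FB, 1.81 ± 1.78 in colonic pericytes, 1.95 ± 1.94 in colonic CD90+ FB and 1.79 ± 1.23 in PDGFRα hi FB of the colon. *Kcnn2* (SK2) averaged 7.65 ± 5.77 CPM in colonic pericytes, 6.96 ± 5.88 in SI pericytes, 5.8 ± 4.58 in SMC and 5.41 ± 1.19 in PDGFRα hi FB of the colon. Elsewhere the means were 2.87 ± 0.626 CPM in SI CD34+ FB, 2.52 ± 2.01 in SI Fgfr2+ FB, 2.97 ± 0.602 in SI PDGFRα hi FB, 1.14 ± 1.9 in colonic CD81+ FB, 2.53 ± 2.93 in colonic CD90+ FB and 2.53 ± 2.15 in colonic Fgfr2+ FB. *Kcnn4*, the intermediate-conductance channel, averaged 13.1 ± 3.85 CPM in SI PDGFRα hi FB, 8.69 ± 7.41 in SI pericytes, 6.95 ± 10.3 in SMC, 6.01 ± 2.97 in PDGFRα hi FB of the colon and 5.19 ± 5.83 in colonic pericytes. The remaining means were 2.61 ± 0.743 CPM in SI CD34+ FB, 3.24 ± 1.09 in SI Fgfr2+ FB, 1.04 ± 0.561 in colonic CD81+ FB, 1.76 ± 0.896 in colonic CD90+ FB and 3.07 ± 0.774 in colonic Fgfr2+ FB. For *Kcnn2* and *Kcnn4*, 2.6% and 0.9% of counts lay on protein-coding transcripts. *Kcnu1*, a sperm channel, did not reach 5 CPM on average in any population.

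**Figure D2:**
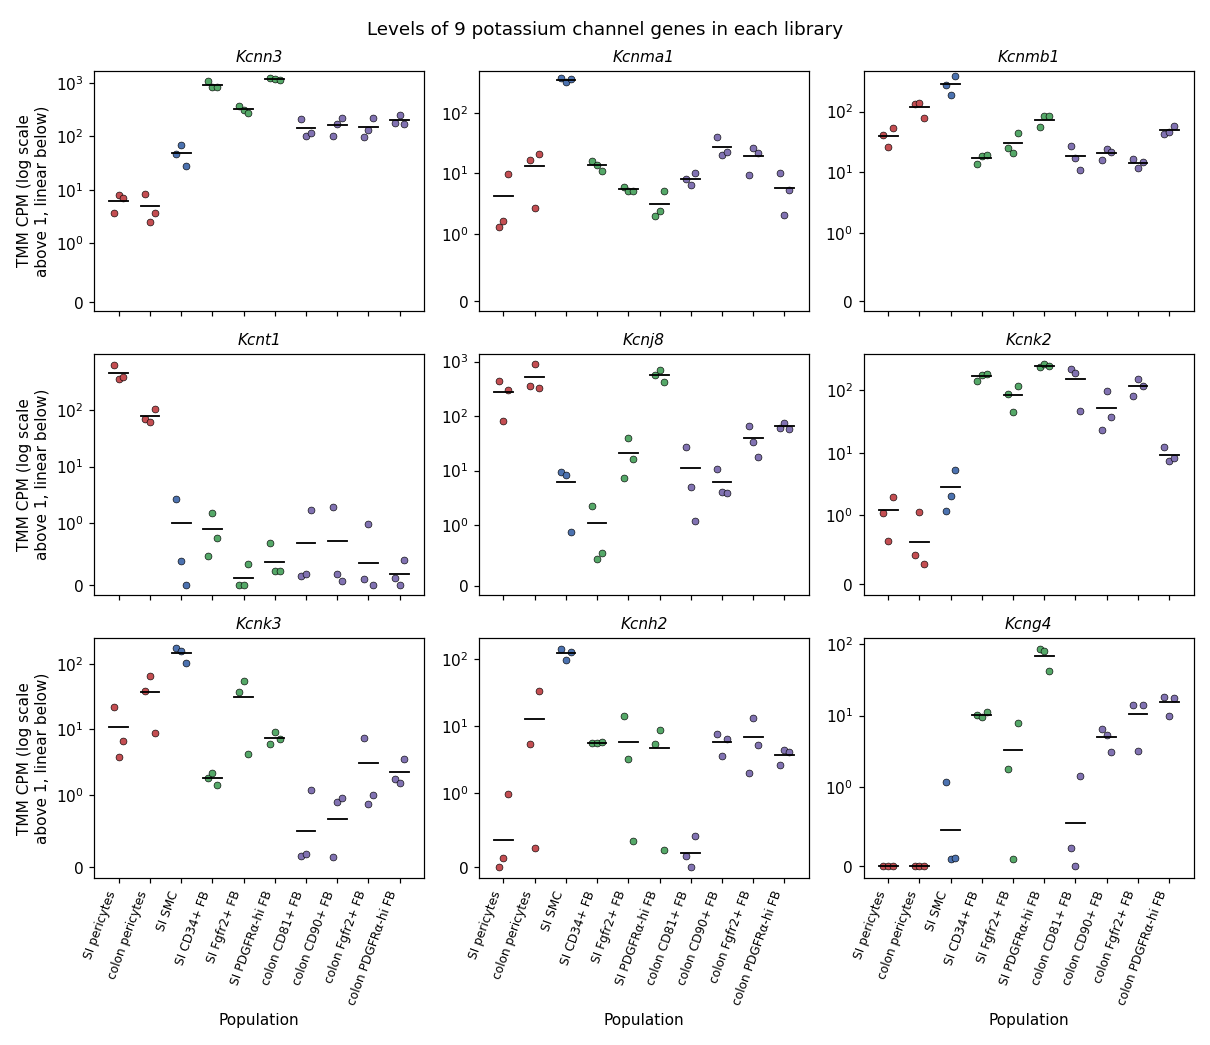
Level in CPM of 9 potassium channel genes in each of the 30 libraries, on an axis that is linear near 0 and logarithmic above, with 1 dot per library and a line at the mean of 3. The pericyte libraries are highest for *Kcnt1* (63.0 to 629 CPM), SMC for *Kcnma1* (324 to 376 CPM) and SI PDGFRα hi FB for *Kcnn3* (1117 to 1241 CPM).

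Among the inward rectifiers, *Kcnj8* stood out. It encodes Kir6.1, the pore of the ATP-sensitive channel of vascular mural cells. SI pericytes had 441, 80.4 and 303 CPM, colonic pericytes 352, 901 and 334 CPM and SI PDGFRα hi FB 569, 709.8 and 427 CPM. These ranges overlapped with each other but with no other population. PDGFRα hi FB of the colon had 60.7, 74.9 and 58.5 CPM, colonic Fgfr2+ FB 66.5, 33.5 and 17.8 CPM and SI Fgfr2+ FB 7.19, 40.4 and 16.3 CPM. The other populations averaged 6.15 ± 4.6 CPM in SMC, 1.09 ± 1.04 in SI CD34+ FB, 11.2 ± 14.2 in colonic CD81+ FB and 6.2 ± 3.81 in colonic CD90+ FB. In edgeR, pericytes exceeded FB by 4.11 ± 0.42 on the log2 scale (adjusted p = 7.23e-09), although SI PDGFRα hi FB overlapped them. SMC lay below SI pericytes, with a difference of -5.48 ± 1.00 (adjusted p = 0.000335). PDGFRα hi FB exceeded Fgfr2+ FB by 2.73 ± 0.62 (adjusted p = 0.00666), but in the colon alone the value was 0.72 (adjusted p = 1). Populations with CD81+ FB lay below the other FB, with -3.91 ± 0.63 (edgeR, adjusted p = 8.18e-05) with -4.84 without replicate 1 of colonic CD81+ FB and, in the colon alone, -1.17 (adjusted p = 0.48).

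Its sulfonylurea receptor *Abcc9* (SUR2), named from the list of channel partners, had the same leading populations. It reached 2140, 2402 and 1866 CPM in SI pericytes, 2032, 2610 and 1139 CPM in colonic pericytes and 1589, 1662 and 2101 CPM in SI PDGFRα hi FB. PDGFRα hi FB of the colon had 185, 214 and 212 CPM, and means elsewhere were 14.5 ± 8.32 CPM in SMC, 23.4 ± 6.55 in SI CD34+ FB, 41.2 ± 16.6 in SI Fgfr2+ FB, 102 ± 21.2 in colonic CD81+ FB, 44.4 ± 24.3 in colonic CD90+ FB and 63 ± 17.8 in colonic Fgfr2+ FB. SI PDGFRα hi FB exceeded PDGFRα hi FB of the colon without overlap (log2 3.13 ± 0.42, edgeR adjusted p = 3.86e-05), whereas *Kcnj8*, which did not overlap between them either, was not called there (log2 3.13 ± 0.89, adjusted p = 0.101). The difference of PDGFRα hi from Fgfr2+ FB in *Abcc9* depended on the tissue (3.75 ± 0.57, adjusted p = 0.000799).

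Both genes lie next to each other on chromosome 6 of GRCm38, *Kcnj8* at chr6:142564837-142571614 and *Abcc9* at chr6:142587862-142702315, both on the minus strand and 16247 bases apart. The genes of the pancreatic type of channel are paired likewise, *Kcnj11* (Kir6.2) at chr7:46093953-46100764 and *Abcc8* (SUR1) at chr7:46104523-46180033, 3758 bases apart on the minus strand. *Kcnj11* had 2.69, 64.3 and 6.54 CPM in colonic pericytes, *Abcc8* 13.8, 3.53 and 39.4 CPM, and both had 0 counts in SI pericytes. Libraries of PDGFRα hi FB of the colon held 5.15, 0 and 1.22 CPM of *Kcnj11*. Means elsewhere were 0 ± 0 CPM in SMC, 0.206 ± 0.279 in SI CD34+ FB, 0 ± 0 in SI Fgfr2+ FB, 0.644 ± 0.842 in SI PDGFRα hi FB, 0.361 ± 0.625 in colonic CD81+ FB, 0.106 ± 0.184 in colonic CD90+ FB and 0.0695 ± 0.0606 in colonic Fgfr2+ FB. *Abcc8* passed the count filter only through the 3 libraries of colonic pericytes, and its test is not used here. Measured against 3 counts, *Kcnj11* was at least 52.8-fold lower in SI than in colonic pericytes (edgeR, adjusted p = 0.034), but at least 9.94-fold without replicate 2 of colonic pericytes. The *Kcnj11* call was lost without replicate 2 of colonic pericytes (adjusted p = 0.104), without replicate 1 (0.0834), 2 (0.0726) or 3 (0.0551) of SI pericytes, with length-scaled counts (0.0925) and in a fit of the 6 pericyte libraries (0.314). Replicate 2 of colonic pericytes had the highest *Kcnj11* and the lowest *Abcc8*. It was also highest of the 3 in haematopoietic, epithelial, pericyte, Cajal and, narrowly, FB markers, whose part was not tested.

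The other called inward rectifiers were low. *Kcnj2* (Kir2.1) had 3.77, 29.9 and 6.39 CPM in colonic and 4.72, 1.14 and 0.984 CPM in SI pericytes. Means elsewhere were 1.06 ± 0.653 CPM in SMC, 1.35 ± 0.34 in SI CD34+ FB, 2.12 ± 2.96 in SI Fgfr2+ FB, 1.18 ± 0.548 in SI PDGFRα hi FB, 0.587 ± 0.242 in colonic CD81+ FB, 2.06 ± 2.4 in colonic CD90+ FB, 0.984 ± 0.84 in colonic Fgfr2+ FB and 0.564 ± 0.228 in PDGFRα hi FB of the colon. *Kcnj16* (Kir5.1) had 26.2, 11.2 and 7.87 CPM in SI and 0.861, 3.91 and 3.95 CPM in colonic pericytes. Means elsewhere were 3.9 ± 1.37 CPM in SMC, 1.97 ± 0.546 in SI CD34+ FB, 2.35 ± 1.26 in SI Fgfr2+ FB, 2.09 ± 0.664 in SI PDGFRα hi FB, 3.79 ± 1.84 in colonic CD81+ FB, 2.39 ± 1.43 in colonic CD90+ FB, 1.92 ± 1.47 in colonic Fgfr2+ FB and 1.6 ± 0.82 in PDGFRα hi FB of the colon. *Kcnj1*, the renal channel ROMK, had 2.15, 7.32 and 3.69 CPM in SI pericytes, 1.58, 0.867 and 8.7 CPM in SMC and 0.753, 0.756 and 2.08 CPM in colonic pericytes. Means elsewhere were 0.852 ± 0.372 CPM in SI CD34+ FB, 0.488 ± 0.303 in SI Fgfr2+ FB, 0.413 ± 0.229 in SI PDGFRα hi FB, 1.89 ± 0.938 in colonic CD81+ FB, 0.677 ± 0.206 in colonic CD90+ FB, 0.966 ± 0.506 in colonic Fgfr2+ FB and 0.718 ± 0.641 in PDGFRα hi FB of the colon. Pericytes overlapped FB in all 3 genes. The log2 differences of pericytes from FB in edgeR were 2.23 ± 0.61 (adjusted p = 0.00655), 1.58 ± 0.46 (adjusted p = 0.0102) and 1.64 ± 0.57 (adjusted p = 0.032), in that order.

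Each of these calls rested on single libraries. That of *Kcnj2* was lost without replicate 2 of colonic (adjusted p = 0.105) or replicate 1 of SI pericytes (0.0653), and in the SI alone the value was 0.61 (adjusted p = 0.719). Both libraries were the highest of their groups in haematopoietic (96.4 and 204 CPM), pericyte (52300 and 52400 CPM), Cajal (901 and 1160 CPM) and FB markers (1890 and 3940 CPM). The colonic one was also highest in epithelial markers (32.5 CPM), and the SI one in SMC, glial and endothelial markers. The part of these markers was not tested. The call of *Kcnj16* was lost without replicate 1 of SI pericytes (adjusted p = 0.0763), fell to log2 1.43 and 1.44 without replicate 2 or 3 of colonic pericytes, and was 0.338 in the colon alone. It was not called without the count filter either (adjusted p = 0.0636). That of *Kcnj1* was lost without replicate 3 of colonic pericytes (adjusted p = 0.132), replicate 2 of SI pericytes (0.116) or replicate 1 of SI CD34+ FB (0.0569), with the replicate number as a block (0.053) and without the count filter (0.138). In the colon alone its value was 0.306 (adjusted p = 0.877). *Kcnj1* was also called higher in SMC than in SI FB (2.74 ± 0.81, edgeR adjusted p = 0.0369), a difference of 1.16 (adjusted p = 0.817) without replicate 3 of SMC and lost in 6 other of the 12 fits without 1 library (adjusted p 0.0519 to 0.0765), in the fit blocked by replicate number (0.0736) and without the count filter (0.13).

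Inward rectifiers that reached 5 CPM but were not called included the subunits of G protein-gated channels. *Kcnj5* averaged 19.2 ± 18.6 CPM in colonic CD81+ FB, 15.7 ± 10.1 in SI Fgfr2+ FB, 10.7 ± 2.19 in colonic Fgfr2+ FB, 10 ± 7.32 in SI PDGFRα hi FB and 8.88 ± 1.63 in colonic CD90+ FB. The rest averaged 4.14 ± 4.09 CPM in SI pericytes, 6.27 ± 3.94 in SMC, 5.54 ± 2.38 in SI CD34+ FB, 3.97 ± 4.05 in colonic pericytes and 4.26 ± 3.74 in PDGFRα hi FB of the colon. *Kcnj3* averaged 11.8 ± 2.2 CPM in SI Fgfr2+ FB and 6.08 ± 8.32 in colonic CD81+ FB. Other populations averaged 0.477 ± 0.137 CPM in SI pericytes, 2.06 ± 2.19 in SMC, 2.44 ± 0.755 in SI CD34+ FB, 1.37 ± 0.628 in SI PDGFRα hi FB, 0.514 ± 0.446 in colonic pericytes, 1.22 ± 0.835 in colonic CD90+ FB, 1.62 ± 2.24 in colonic Fgfr2+ FB and 1.27 ± 0.995 in PDGFRα hi FB of the colon, but 31.1% of its exon bases are shared with a gene on the other strand. *Kcnj9* averaged 14.5 ± 23.5 CPM in SI pericytes and 10.1 ± 17.5 in SI Fgfr2+ FB, each from replicate 1 (41.7 and 30.3 CPM). Elsewhere the means were 0.141 ± 0.244 CPM in SMC, 2.12 ± 1.12 in SI CD34+ FB, 0.0571 ± 0.0574 in SI PDGFRα hi FB, 0.275 ± 0.388 in colonic pericytes, 1.14 ± 1.97 in colonic CD81+ FB, 0.808 ± 1.01 in colonic CD90+ FB, 0.267 ± 0.276 in colonic Fgfr2+ FB and 1.9 ± 2.19 in PDGFRα hi FB of the colon. *Kcnj13* (Kir7.1) averaged 6.19 ± 5.27 CPM in colonic pericytes, 4.49 ± 5.41 in PDGFRα hi FB of the colon and 3.66 ± 2.57 in colonic CD90+ FB. The remaining means were 0.143 ± 0.248 CPM in SI pericytes, 0.886 ± 0.897 in SMC, 2.1 ± 0.613 in SI CD34+ FB, 2.05 ± 1.92 in SI Fgfr2+ FB, 1 ± 0.668 in SI PDGFRα hi FB, 0.429 ± 0.567 in colonic CD81+ FB and 1.7 ± 0.885 in colonic Fgfr2+ FB, with 49.1% of its exon bases shared with *Gigyf2* on the other strand.

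Of the two-pore channels, which carry background currents, *Kcnk2* marked FB. It encodes the stretch-sensitive channel TREK-1. SI PDGFRα hi FB had 236, 263 and 248 CPM, SI CD34+ FB 144, 177 and 185 CPM and SI Fgfr2+ FB 86.8, 45.7 and 119 CPM. In the colon, CD81+ FB had 225, 190.3 and 46.1 CPM, Fgfr2+ FB 82.8, 151 and 118 CPM, CD90+ FB 23.1, 99 and 37.3 CPM, and PDGFRα hi FB, the lowest FB, 12.4, 7.4 and 8.15 CPM. SMC held 1.16, 2.02 and 5.39 CPM and pericytes 1.07, 0.631 and 1.97 CPM in the SI and 0.43, 1.13 and 0.287 CPM in the colon. Every FB library exceeded every SMC and pericyte library. The log2 difference in edgeR was -6.72 ± 0.52 for pericytes against FB (adjusted p = 2.88e-11) and -5.73 ± 0.69 for SMC against SI FB (adjusted p = 9.25e-07). The latter was -6.54 without replicate 3 of SMC.

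*Kcnk2* was higher in SI than in PDGFRα hi FB of the colon by 4.74 ± 0.68 on the log2 scale (edgeR, adjusted p = 8.43e-05), with all SI libraries at or above 236 CPM and all colonic ones at or below 12.4 CPM. In Fgfr2+ FB the tissues overlapped and the difference was -0.49 ± 0.58 (adjusted p = 0.798). The test of the difference between these differences gave 5.23 ± 0.87 (edgeR, adjusted p = 0.00201). Most *Kcnk2* counts, 61.8%, lay on a transcript annotated as subject to nonsense-mediated decay and 37.9% on protein-coding ones. Coding transcripts alone had 96.9, 92.3 and 111 CPM in SI and 1.55, 1.1 and 7.73 CPM in PDGFRα hi FB of the colon. An antisense gene shares 12.2% of its exon bases.

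*Kcnk3*, the acid-sensitive channel TASK-1, was highest in SMC, with 174, 157 and 105 CPM. Colonic pericytes had 39, 65 and 8.91 CPM, SI Fgfr2+ FB 36.8, 54.6 and 4.15 CPM, SI pericytes 22.3, 3.79 and 6.77 CPM and SI PDGFRα hi FB 6.03, 9.2 and 7.24 CPM. Elsewhere it averaged 1.8 ± 0.391 CPM in SI CD34+ FB, 0.504 ± 0.574 in colonic CD81+ FB, 0.668 ± 0.456 in colonic CD90+ FB, 3.11 ± 3.75 in colonic Fgfr2+ FB and 2.26 ± 1.1 in PDGFRα hi FB of the colon. SMC did not overlap the others. In edgeR they exceeded SI FB by 4.26 ± 0.67 (adjusted p = 5.94e-05) and SI pericytes by 3.74 ± 1.00 (adjusted p = 0.0136), the latter lost without replicate 2 (adjusted p = 0.0552) and at 4.84 without replicate 1 of SI pericytes. Pericytes exceeded FB by 2.72 ± 0.46 (edgeR, adjusted p = 4.07e-05), but by 0.53 in the SI alone (adjusted p = 0.672). This difference depended on the tissue (-4.39 ± 1.11, adjusted p = 0.0235), a call lost without replicate 2 of colonic (adjusted p = 0.0656) or of SI pericytes (0.0635) and at -5.43 without replicate 1 of SI pericytes. The 7 SMC markers, led by *Myh11* with none at 0, averaged 3730 CPM in SI and 11300 CPM in colonic pericytes, and 3 of 7 were called lower in the same test. Their part in the *Kcnk3* difference was not tested. Populations with CD81+ FB had less than the other FB (-2.42 ± 0.63, adjusted p = 0.016), lost without replicate 1 (0.0551) or 2 (0.0632) of colonic CD81+ FB, without replicate 3 of SI CD34+ FB (0.0548), and in the SI (0.0676) or colon alone (0.339), and at -3.16 without replicate 3 of colonic CD81+ FB. In that comparison 4 of the 7 SMC markers were called lower and 0 higher (median log2 of the 7 -2.08), and their part was not tested either.

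*Kcnk13*, the channel THIK-1, was seen in SI PDGFRα hi FB, at 9.51, 10.1 and 5.86 CPM. PDGFRα hi FB of the colon had 0.613, 0 and 0.543 CPM, and the other 24 libraries no more than 0.123 CPM. *Kcnk1* (TWIK-1) had 1.88, 1.98 and 4.71 CPM in SI and 3.55, 0 and 2.17 CPM in PDGFRα hi FB of the colon. Means elsewhere were 0.168 ± 0.105 CPM in SMC, 0.45 ± 0.308 in SI CD34+ FB, 0.122 ± 0.0366 in colonic CD81+ FB, 0.187 ± 0.189 in colonic CD90+ FB and 0.0957 ± 0.11 in colonic pericytes, and at most 1 count per library in the others. Both Fgfr2+ FB populations held at most 1 count per library of either gene. *Kcnk13* passed the count filter only through the 3 libraries of SI PDGFRα hi FB, and its call against Fgfr2+ FB, 1 of the 5 counted above, is not used here. *Kcnk1* was called higher in PDGFRα hi than in Fgfr2+ FB (edgeR, adjusted p = 0.012), but not in the SI (adjusted p = 0.128) or the colon alone (0.247).

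*Kcnk5* (TASK-2) reached 0, 40.1 and 1.5 CPM in colonic CD81+ FB and 0.572, 0.784 and 0.859 CPM in SI CD34+ FB, and no more than 2.15 CPM in the other libraries, with 0 counts in pericytes and SMC. It passed the count filter only through populations with CD81+ FB, since outside them only replicate 2 of colonic CD90+ and of colonic Fgfr2+ FB reached 6 counts. Its call as higher in those populations, counted above, is therefore not used here. That call was also lost without replicate 2 of colonic CD81+ FB (edgeR, adjusted p = 0.333) and in the SI alone (0.39). Its call between pericytes and FB (edgeR, adjusted p = 0.0444) is not used either, since all its counts lay in FB. This second call was lost in 18 of 27 fits without 1 library (adjusted p 0.0504 to 1), by DESeq2 (0.0526) and in the SI (0.374) or colon alone (0.0765). *Kcnk6* (TWIK-2) was present in all populations and not called, with 23.4, 63.4 and 42.7 CPM in SI pericytes and 19.3 ± 3.86 CPM in SMC, 37.1 ± 7.71 in SI CD34+ FB, 57.8 ± 27.6 in SI Fgfr2+ FB and 22.6 ± 4.79 in SI PDGFRα hi FB. In the colon the means were 19.8 ± 2.74 CPM in colonic pericytes, 50.1 ± 10.9 in colonic CD81+ FB, 31.9 ± 8.03 in colonic CD90+ FB, 22.4 ± 10.6 in colonic Fgfr2+ FB and 19.7 ± 4.36 in PDGFRα hi FB of the colon.

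Of the 26 voltage-gated genes tested, 7 were called higher and 4 lower in pericytes than in FB, against 9.05% and 9.25% of all genes. *Kcnh1*, an ether-à-go-go channel, had 624, 47.2 and 20.7 CPM in SI pericytes and 13.3, 1.89 and 3.31 CPM in colonic pericytes, with 0.49, 9.57 and 2.99 CPM in PDGFRα hi FB of the colon and at most 0.949 CPM in any other library. Replicate 1 of SI pericytes lay more than 10 times above the others of its group. Pericytes exceeded FB in edgeR (adjusted p = 4.5e-10), a call kept without that library. SMC lay below SI pericytes (-9.07 ± 1.65, adjusted p = 0.000417) and SI pericytes above colonic ones (5.22 ± 1.37, adjusted p = 0.0258). The last was lost without replicate 1 of SI (log2 2.45, edgeR adjusted p = 0.358) or replicate 2 (0.0795) or 3 (0.0707) of colonic pericytes, and in a fit of the 6 pericyte libraries (0.329), and was 6.46 without replicate 1 of colonic pericytes. The difference of SMC was -6.26 without replicate 1 of SI pericytes and -10.5 without replicate 1 of SMC. That SI library was also the highest of its group in the pericyte, SMC, FB, glial and Cajal markers. The same held for the endothelial markers (278, 151 and 158 CPM, led by *Tek*, with *Cldn5* at 0), of which 1 was called higher and 0 lower in SI than in colonic pericytes. It also held for the haematopoietic markers (204, 4.92 and 24.4 CPM, led by *Cd79a*, with *Cd52* and *Tyrobp* at 0), of which 0 were called higher and 1 lower. The part of any of these in the *Kcnh1* level was not tested.

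*Kcna5*, which encodes Kv1.5 of vascular smooth muscle, had 7.21, 35.7 and 81.7 CPM in colonic pericytes and 0, 18.4 and 36.3 CPM in SI pericytes. It had 0 counts in SMC and at most 0.572 CPM in FB. It passed the count filter only through pericytes, since outside them replicate 3 of colonic CD90+ FB alone reached 6 counts. Its calls in pericytes against FB and in SMC against SI pericytes, counted above, are therefore not used here. The levels lay above those of all FB in 5 of 6 pericyte libraries. Against 3 counts, SMC were at least 58.5-fold lower than the mean of SI pericytes and at least 29.6-fold without replicate 3 of SI pericytes. Replicate 1 of SI pericytes was at 0 as well. *Kcna2* (Kv1.2) had 27.6, 16.1 and 22.9 CPM in colonic and 2.36, 30.4 and 10.6 CPM in SI pericytes. Means elsewhere were 9.42 ± 4.28 CPM in SMC, 4.21 ± 1.22 in SI CD34+ FB, 3.44 ± 2.34 in SI Fgfr2+ FB, 2.37 ± 1.33 in SI PDGFRα hi FB, 3.61 ± 2.93 in colonic CD81+ FB, 2.18 ± 0.302 in colonic CD90+ FB, 7.61 ± 6.63 in colonic Fgfr2+ FB and 3.5 ± 1.74 in PDGFRα hi FB of the colon. It overlapped FB and exceeded them by 2.35 ± 0.44 (edgeR, adjusted p = 0.000165).

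*Kcnq5*, a channel that opens at modest depolarization, had 42.2, 89 and 125 CPM in colonic and 65.7, 21 and 33.2 CPM in SI pericytes, 19.6, 41.2 and 26.2 CPM in SI and 7.97, 34.7 and 14.2 CPM in PDGFRα hi FB of the colon. Means elsewhere were 12.4 ± 8.56 CPM in SMC, 5.51 ± 1.38 in SI CD34+ FB, 3.03 ± 0.645 in SI Fgfr2+ FB, 4.6 ± 3.03 in colonic CD81+ FB, 6.78 ± 2.79 in colonic CD90+ FB and 6.22 ± 6.02 in colonic Fgfr2+ FB. Pericytes exceeded FB by 2.90 ± 0.38 (edgeR, adjusted p = 7.39e-07) and PDGFRα hi exceeded Fgfr2+ FB by 2.43 ± 0.56 (adjusted p = 0.00804). With counts scaled for the length of the transcripts used, these values were 0.963 (adjusted p = 0.11) and 0.976 (0.54), so neither call held, while with protein-coding transcripts alone they were 6.73 and 6.53. In the colon alone the second was 1.61 (adjusted p = 0.57). Its relative *Kcnq3* was not called. *Kcnq3* averaged 90.0 ± 67.2 CPM in SI pericytes, 39.1 ± 10.8 in SMC, 37.5 ± 4.11 in SI CD34+ FB, 41.3 ± 27.9 in SI Fgfr2+ FB and 29.1 ± 2.66 in SI PDGFRα hi FB. Colonic means were 33.4 ± 20.8 CPM in colonic pericytes, 26.4 ± 7.04 in colonic CD81+ FB, 46.4 ± 5.17 in colonic CD90+ FB, 46.3 ± 32.9 in colonic Fgfr2+ FB and 34.5 ± 6.51 in PDGFRα hi FB of the colon.

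*Kcnc1* (Kv3.1), a fast delayed rectifier, had 11.1, 41.8 and 3.88 CPM in colonic and 26.6, 10.7 and 9.35 CPM in SI pericytes. Means elsewhere were 8.08 ± 3.02 CPM in SMC, 4.8 ± 0.689 in SI CD34+ FB, 4.29 ± 0.882 in SI Fgfr2+ FB, 5.56 ± 1.46 in SI PDGFRα hi FB, 6.74 ± 4.04 in colonic CD81+ FB, 6.99 ± 1.72 in colonic CD90+ FB, 3.68 ± 2.08 in colonic Fgfr2+ FB and 3.6 ± 0.25 in PDGFRα hi FB of the colon. Its difference of 1.80 ± 0.41 from FB (edgeR, adjusted p = 0.00136) fell to 1.09 (adjusted p = 0.0632) without replicate 2 of colonic pericytes, to 1.46 without replicate 1 of SI pericytes and to 1.44 with length-scaled counts. Both libraries were the highest of their groups in haematopoietic (96.4 and 204 CPM), pericyte (52300 and 52400 CPM), Cajal (901 and 1160 CPM) and FB markers (1890 and 3940 CPM). The SI library was also highest in SMC, glial and endothelial markers, and the colonic one in epithelial markers. Haematopoietic markers were led by *Lyz2* in colonic and *Cd79a* in SI pericytes, with 3 and 2 of the 7 genes at 0. The part of any of these markers was not tested.

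*Kcnh2*, the ERG1 channel, was highest in SMC at 142, 97.5 and 126 CPM. Colonic pericytes had 5.27, 0.252 and 32.8 CPM, SI pericytes 0, 0.126 and 0.984 CPM. The FB means were 5.63 ± 0.0581 CPM in SI CD34+ FB, 5.81 ± 7.09 in SI Fgfr2+ FB, 4.72 ± 4.21 in SI PDGFRα hi FB, 0.191 ± 0.21 in colonic CD81+ FB, 5.83 ± 2.11 in colonic CD90+ FB, 6.72 ± 5.66 in colonic Fgfr2+ FB and 3.66 ± 0.952 in PDGFRα hi FB of the colon. SMC did not overlap any other population, and exceeded SI FB by 4.49 ± 0.87 (edgeR, adjusted p = 0.000909) and SI pericytes by 8.21 ± 1.62 (adjusted p = 0.000859). Without replicate 3 of SI pericytes the latter was 10.4. SI pericytes lay below colonic ones, with overlap (-4.97 ± 1.43, adjusted p = 0.0373), and the difference of pericytes from FB depended on the tissue (-6.20 ± 1.58, adjusted p = 0.0248). Both were lost without replicate 3 of colonic pericytes (adjusted p = 0.208 and 0.116), replicate 1 of SI pericytes (0.106 and 0.0674) or replicate 2 of SI pericytes (0.0949 and 0.0661). They were -5.58 and -6.79 without replicate 2 of colonic and -7.19 and -8.43 without replicate 3 of SI pericytes. The difference between the tissues was also lost with the replicate number as a block (adjusted p = 0.0557), with protein-coding transcripts alone (0.0519) and in a fit of the 6 pericyte libraries (0.589). The 7 SMC markers moved the same way (4590, 3200 and 3400 CPM in SI and 10500, 11600 and 11800 CPM in colonic pericytes, led by *Myh11* with none at 0). Of these, 2 were called lower in SI pericytes and 3 in the test of dependence on tissue, and their part was not tested.

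Modifier subunits, which do not conduct alone but change other voltage-gated channels, also differed. *Kcng4* had 86.3, 79.6 and 41.5 CPM in SI PDGFRα hi FB, 18.5, 9.96 and 17.6 CPM in PDGFRα hi FB of the colon, 14.2, 3.22 and 13.9 CPM in colonic Fgfr2+ FB and 10.1, 9.41 and 11.4 CPM in SI CD34+ FB, with 0.456 ± 0.61 CPM in SMC, 3.29 ± 4.14 in SI Fgfr2+ FB, 0.55 ± 0.759 in colonic CD81+ FB and 5.01 ± 1.79 in colonic CD90+ FB on average elsewhere and 0 counts in all 6 pericyte libraries. Pericytes were at least 42.4-fold lower than FB against 3 counts. *Kcng4* passed the count filter only through FB, since outside them replicate 1 of SMC alone reached 6 counts. Its calls as lower in pericytes than in FB and in SMC than in SI FB, counted above, are therefore not used here. The call of SMC below SI FB (-4.81 ± 1.26, edgeR adjusted p = 0.0189) was also lost without replicate 2 (adjusted p = 0.0953) or 3 (0.131) of SMC. It was -6.83 without replicate 1.

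*Kcns3* had 27.7, 19.3 and 31.6 CPM in SMC, 12.8, 33.1 and 27 CPM in SI and 24.5, 7.02 and 18.4 CPM in colonic Fgfr2+ FB. SI PDGFRα hi FB had 0, 0.113 and 0 CPM, whereas PDGFRα hi FB of the colon had 9.56, 13.3 and 14.9 CPM. The other FB averaged 9.25 ± 1.77 CPM in SI CD34+ FB, 5.05 ± 6.84 in colonic CD81+ FB and 9.81 ± 2.23 in colonic CD90+ FB, and pericytes had 0, 1.01 and 0 CPM in the SI and 0, 1.13 and 0 CPM in the colon. SI PDGFRα hi FB, with at most 2 counts per library, were called lower than their colonic counterparts (edgeR, adjusted p = 0.00929), a call lost without replicate 1 (adjusted p = 0.0817) or 3 (0.0797) of SI PDGFRα hi FB. PDGFRα hi FB were called lower than Fgfr2+ FB (adjusted p = 0.0043), but not in the colon alone (log2 -0.40, adjusted p = 1). The test of whether this depended on the tissue gave an adjusted p of 0.0379, lost in 11 of 12 fits without 1 library (adjusted p 0.0656 to 0.143), the exception being replicate 1 of SI Fgfr2+ FB, and in the fit blocked by replicate number (0.0503).

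SMC exceeded SI pericytes in *Kcns3* without overlap (6.15 ± 1.45, edgeR adjusted p = 0.00514), although not in a fit of those 6 libraries alone (adjusted p = 0.0989). The value was 11.1 without replicate 2 and 5.56 without replicate 3 of SI pericytes. Of the 6 FB markers, 3 were called higher in SMC than in SI pericytes (median log2 of the 6 2.3), and their part in the *Kcns3* difference was not tested. They were also called above SI FB (adjusted p = 0.013) with overlap, which was lost without replicate 3 of SMC (adjusted p = 0.0575). Pericytes were called below FB (adjusted p = 0.00203), which was lost without replicate 2 of SI PDGFRα hi FB (adjusted p = 1) and in the SI alone (0.134). *Kcns1*, a further modifier, was not called and averaged 2.37 ± 2.05 CPM in SI pericytes, 2.25 ± 2.21 in SMC, 2.68 ± 0.413 in SI CD34+ FB, 13 ± 9.33 in SI Fgfr2+ FB and 4.18 ± 3.94 in SI PDGFRα hi FB. Colonic means were 8.5 ± 8.81 CPM in colonic pericytes, 1.5 ± 2.09 in colonic CD81+ FB, 5.04 ± 0.517 in colonic CD90+ FB, 3.31 ± 4.24 in colonic Fgfr2+ FB and 4.48 ± 0.607 in PDGFRα hi FB of the colon.

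*Kcnd3* (Kv4.3), a channel of transient A-type currents, had 29.5, 89.9 and 44 CPM in PDGFRα hi FB of the colon, 17.5, 5.56 and 13.9 CPM in colonic Fgfr2+ FB and 6.15, 4.78 and 7.95 CPM in colonic CD90+ FB. Means elsewhere were 0.113 ± 0.108 CPM in SI pericytes, 0.778 ± 1.16 in SMC, 0.461 ± 0.433 in SI CD34+ FB, 0.301 ± 0.521 in SI Fgfr2+ FB, 2.85 ± 2.57 in SI PDGFRα hi FB, 1.29 ± 1.71 in colonic pericytes and 2.05 ± 1.93 in colonic CD81+ FB. It passed the count filter only through FB, since outside them only replicate 3 of colonic pericytes and replicate 2 of SMC reached 6 counts. Its call as lower in pericytes than in FB (edgeR, adjusted p = 0.0453), counted above and with overlap, is therefore not used here. Of 27 fits without 1 library, 19 lost the call (adjusted p 0.0506 to 1), as did the SI (0.241) and the colon alone (0.142), the replicate number as a block (0.059), length-scaled counts (0.0968) and protein-coding transcripts alone (0.0665). Its relative *Kcnd1* was not called and averaged 31.6 ± 33.7 CPM in SI pericytes, 42.4 ± 41.4 in SMC, 39.1 ± 5.87 in SI CD34+ FB, 27.4 ± 19.7 in SI Fgfr2+ FB and 26.6 ± 22 in SI PDGFRα hi FB. In the colon the means were 15.6 ± 19 CPM in colonic pericytes, 24.4 ± 5.66 in colonic CD81+ FB, 29.7 ± 2.24 in colonic CD90+ FB, 24.9 ± 10.1 in colonic Fgfr2+ FB and 28.7 ± 14.1 in PDGFRα hi FB of the colon. *Kcnb2* (Kv2.2) averaged 13.7 ± 7.96 CPM in colonic CD90+ FB, 7 ± 6.54 in SI Fgfr2+ FB, 5.87 ± 1.61 in SMC and 4.96 ± 2.8 in colonic Fgfr2+ FB. The rest averaged 2.01 ± 1.94 CPM in SI pericytes, 2.11 ± 0.183 in SI CD34+ FB, 1.21 ± 0.355 in SI PDGFRα hi FB, 3.37 ± 2.57 in colonic pericytes, 1.54 ± 0.501 in colonic CD81+ FB and 2.46 ± 1.56 in PDGFRα hi FB of the colon. *Kcnh7* (ERG3) averaged 6.05 ± 1.08 CPM in SI pericytes, 12.1 ± 5.76 in SMC, 6.95 ± 1.55 in SI CD34+ FB, 12.9 ± 7.89 in SI Fgfr2+ FB and 6.3 ± 2.57 in SI PDGFRα hi FB. Colonic means were 10.7 ± 0.376 CPM in colonic pericytes, 19.6 ± 11.5 in colonic CD81+ FB, 7.41 ± 3.07 in colonic CD90+ FB, 4.62 ± 3.81 in colonic Fgfr2+ FB and 4.9 ± 0.867 in PDGFRα hi FB of the colon, and neither gene was called.

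Among accessory subunits, *Kcne4*, a single-span protein that modifies Kv channels, was highest in pericytes. Colonic pericytes had 197, 161 and 40.0 CPM, SI pericytes 43.4, 87.4 and 66.2 CPM and SMC 19.8, 22.9 and 119 CPM. Colonic Fgfr2+ FB came closest with 28.5, 27.2 and 38.2 CPM, and the other FB averaged 6 ± 0.737 CPM in SI CD34+ FB, 3.71 ± 4.42 in SI Fgfr2+ FB, 3.71 ± 2.9 in SI PDGFRα hi FB, 13.4 ± 5.79 in colonic CD81+ FB, 11.8 ± 5 in colonic CD90+ FB and 3.16 ± 2.57 in PDGFRα hi FB of the colon. The lowest pericyte library (40.0 CPM) lay just above the highest FB library (38.2 CPM), whereas replicates 1 and 2 of SMC lay below every library of colonic Fgfr2+ FB. Pericytes exceeded FB by 3.75 ± 0.43 (edgeR, adjusted p = 5.84e-08) and SMC exceeded SI FB by 3.65 ± 0.63 (adjusted p = 0.000208). Without replicate 3 of SMC the latter was 2.34 (adjusted p = 0.0488). That library was also the highest of SMC in pericyte markers (4670, 4230 and 7820 CPM) and endothelial markers (40.7, 41.8 and 180 CPM), and in FB, glial and Cajal markers. Of the 7 pericyte markers, 2 were called higher and 0 lower in SMC than in SI FB (median log2 -0.32). The part of any of these in the *Kcne4* difference was not tested.

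*Kcnip3*, a calcium-binding partner of Kv4 channels also known as a transcriptional repressor, had 94.2, 148 and 356 CPM in SMC, 115, 49.2 and 11.4 CPM in SI pericytes and 1.33, 72 and 9.69 CPM in SI Fgfr2+ FB. Means elsewhere were 15 ± 1.64 CPM in SI CD34+ FB, 9.04 ± 11 in SI PDGFRα hi FB, 10.3 ± 6.04 in colonic pericytes, 6.33 ± 5.59 in colonic CD81+ FB, 18 ± 10.4 in colonic CD90+ FB, 17 ± 3.51 in colonic Fgfr2+ FB and 14.3 ± 3.99 in PDGFRα hi FB of the colon. SMC lay above SI FB without overlap (3.67 ± 0.76, edgeR adjusted p = 0.00179), by 2.99 (adjusted p = 0.0429) without replicate 3 of SMC and 4.47 without replicate 2 of SI Fgfr2+ FB. *Kcnip2* had 1.09, 31.2 and 2.17 CPM in colonic CD81+ FB. Means elsewhere were 0.673 ± 1.17 CPM in SI pericytes, 0.0321 ± 0.0556 in SMC, 0.792 ± 0.436 in SI CD34+ FB, 0.0233 ± 0.0403 in SI Fgfr2+ FB, 4.48 ± 3.4 in SI PDGFRα hi FB, 0 ± 0 in colonic pericytes, 3.19 ± 1.1 in colonic CD90+ FB, 0.878 ± 1.52 in colonic Fgfr2+ FB and 0.899 ± 0.116 in PDGFRα hi FB of the colon. It passed the count filter only through FB, since outside them replicate 2 of SI pericytes alone reached 6 counts. Its call as lower in pericytes than in FB (edgeR, adjusted p = 0.0393), counted above, is therefore not used here. In the SI alone the value was 0.38 (adjusted p = 0.875), and 10 of 27 fits without 1 library lost the call (adjusted p 0.0513 to 1). *Kcnip1* and *Kcnip4* were not called. *Kcnip1* averaged 5.35 ± 1.84 CPM in SMC, 3.23 ± 1.5 in SI pericytes, 2.67 ± 2.02 in SI Fgfr2+ FB and 2.37 ± 0.627 in SI CD34+ FB. Other populations averaged 1.47 ± 0.622 CPM in SI PDGFRα hi FB, 0.897 ± 1.09 in colonic pericytes, 1.12 ± 0.818 in colonic CD81+ FB, 2.02 ± 1.15 in colonic CD90+ FB, 1.01 ± 0.52 in colonic Fgfr2+ FB and 0.473 ± 0.301 in PDGFRα hi FB of the colon, and *Kcnip4* 7.48 ± 6.61 CPM in SI pericytes, 2.52 ± 1.66 in SMC, 2.52 ± 0.603 in SI CD34+ FB, 3.37 ± 1.21 in SI Fgfr2+ FB and 2.55 ± 0.497 in SI PDGFRα hi FB. In the colon the means were 3.45 ± 3.68 CPM in colonic pericytes, 1.61 ± 0.401 in colonic CD81+ FB, 2.03 ± 0.761 in colonic CD90+ FB, 1.61 ± 1.08 in colonic Fgfr2+ FB and 1.09 ± 0.572 in PDGFRα hi FB of the colon. Protein-coding transcripts held 16.2% of the *Kcnip1* and 0.1% of the *Kcnip4* counts.

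*Kcnab1*, a beta subunit of Kv1 channels, had 95.8, 0.253 and 8.61 CPM in SI pericytes, 23.2, 8.7 and 90.4 CPM in colonic pericytes and 24.4, 18.8 and 45.5 CPM in SI PDGFRα hi FB. Means elsewhere were 4.15 ± 1.56 CPM in SMC, 6.36 ± 1.7 in SI CD34+ FB, 12.4 ± 6.61 in SI Fgfr2+ FB, 3.19 ± 3.74 in colonic CD81+ FB, 7.49 ± 4.72 in colonic CD90+ FB, 4.32 ± 4 in colonic Fgfr2+ FB and 7.75 ± 6.52 in PDGFRα hi FB of the colon. SI pericytes thus spanned the whole range of the FB. The called difference of pericytes from FB (2.16 ± 0.59, edgeR adjusted p = 0.0063) was lost without replicate 1 of SI pericytes (0.67, adjusted p = 0.49) or replicate 3 of colonic pericytes (1.49, adjusted p = 0.0869) and in the SI alone (1.39, adjusted p = 0.277). With protein-coding transcripts alone, which held 5.4% of its counts, the value was 0.66 (adjusted p = 1). *Kcnab3* was not called and averaged 6.91 ± 6.71 CPM in colonic CD81+ FB, 6.37 ± 2.33 in colonic CD90+ FB, 4.11 ± 1.65 in SI CD34+ FB and 3.04 ± 4.68 in colonic Fgfr2+ FB. Elsewhere the means were 0.787 ± 1.36 CPM in SI pericytes, 1.3 ± 1.38 in SMC, 0.255 ± 0.224 in SI Fgfr2+ FB, 1.71 ± 1.78 in SI PDGFRα hi FB, 0.623 ± 0.544 in colonic pericytes and 1.05 ± 0.906 in PDGFRα hi FB of the colon, and 12.2% of its counts lay on protein-coding transcripts.

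The genes that work with these channels were read from lists of their own. Over all genes, 9.05% were higher and 9.25% lower in pericytes than in FB, and 3.42% higher and 1.74% lower in SMC than in SI FB. Of 9 genes of channel partners 6 were tested, and against FB pericytes had 1 higher (*Abcc9*, 4.31 ± 0.20, edgeR adjusted p = 4.37e-16) and 2 lower (*Amigo1* and *Lrrc55*). *Lrrc55*, a gamma subunit of BK, was at 124, 102 and 154 CPM in SI PDGFRα hi FB, 1.79, 4.91 and 20.9 CPM in SMC and at most 0.429 CPM in pericytes. *Lrrc26*, *Lrrc38* and *Lrrc52*, the other gamma subunits, were not tested, with 1.36 CPM of *Lrrc26* in 1 library as the highest value. Of 18 genes of voltage-gated calcium channels 17 were tested, of which 4 were higher and 1 lower in pericytes than in FB, and 3 higher and 1 lower in SMC than in SI FB. The L-type pore *Cacna1c* had 1182, 958 and 885 CPM in SI pericytes, 1127, 922 and 1100 CPM in colonic pericytes and 439, 392 and 400.5 CPM in SMC, against at most 49.9 CPM in any FB library (5.49 ± 0.28 for pericytes against FB, edgeR adjusted p = 4.51e-15). *Cacna1a*, among the 4, was lost without replicate 1 of SI (log2 1.07) or 3 of colonic pericytes (1.36), and *Cacna1g*, the lower gene, without replicate 1 of colonic (-1.42) or 2 of SI pericytes (-1.5). *Cacna1e*, among the 3 of SMC, was lost without replicate 3 of SMC (1.36).

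Of 11 genes of calcium release and store entry, all tested, 2 were higher (*Ryr2* and *Stim1*) and 3 lower (*Itpr3*, *Orai2* and *Ryr3*) in pericytes than in FB, and 0 higher and 2 lower in SMC than in SI FB. Of 7 sodium potassium pump genes, 2 were higher, led by *Atp1b2* (1112, 2075 and 1310 CPM in SI and 1433, 2143 and 1768 CPM in colonic pericytes), and 1 lower in pericytes. Of 6 genes of nitric oxide and cGMP signalling, which relaxes mural cells, all tested, 5 were higher and 0 lower in pericytes than in FB, *Gucy1b1* by 2.78 ± 0.16 (edgeR, adjusted p = 5.01e-14). Without replicate 1 of SI pericytes, *Stim1* (log2 1.48) was no longer called. The calcium-activated chloride channel *Ano1* had 1096, 547 and 695 CPM in SI and 723, 855 and 591 CPM in colonic pericytes, and 78.3, 77 and 81.5 CPM in PDGFRα hi FB of the colon, against at most 3.12 CPM in the other 21 libraries (8.79 ± 0.39 for pericytes against FB, adjusted p = 1.66e-16).

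Promoter windows from 250 bases before to 50 after the start of transcription were read from RefSeq on GRCm38.p6, where 68 of the 93 channel genes matched by symbol, with 93 windows. The CArG box, the binding motif of serum response factor in muscle genes, was in 0 of these 93 windows and in 1.63% of all 32851. After this search had given no match, the GC box was searched, spelled GGGCGG on either strand, and was in 47.3% of the channel gene windows and 35.7% of all, whose median content of G or C was 58.0% and 52.7%. The windows of 2 pairs are shown, the BK subunits that were both highest in SMC and the channel and receptor of pericytes and SI PDGFRα hi FB, pairs that were chosen after their levels had been seen. Capitals mark the GC box. *Kcnma1* (chr14:24004156-24004455, minus strand, 78.0% G or C) held 3 boxes, *Kcnmb1* (chr11:33962763-33963062, plus strand, 49.7%) and *Kcnj8* (chr6:142571565-142571864, minus strand, 53.3%) held 0, and *Abcc9* (chr6:142702225-142702524, minus strand, 65.7%) held 1. A match is a match of letters only.
Kcnma1: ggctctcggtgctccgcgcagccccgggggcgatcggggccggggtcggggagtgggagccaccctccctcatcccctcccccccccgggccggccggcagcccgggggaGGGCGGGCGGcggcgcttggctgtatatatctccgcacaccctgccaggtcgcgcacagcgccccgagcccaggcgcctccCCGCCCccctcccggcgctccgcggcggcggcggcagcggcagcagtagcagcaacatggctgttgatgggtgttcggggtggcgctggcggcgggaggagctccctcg
Kcnmb1: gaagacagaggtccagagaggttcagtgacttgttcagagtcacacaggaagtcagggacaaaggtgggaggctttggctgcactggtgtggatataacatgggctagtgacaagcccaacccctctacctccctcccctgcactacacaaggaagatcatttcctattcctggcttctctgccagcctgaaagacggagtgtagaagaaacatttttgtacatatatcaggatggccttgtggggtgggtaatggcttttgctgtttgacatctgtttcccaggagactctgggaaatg
Kcnj8: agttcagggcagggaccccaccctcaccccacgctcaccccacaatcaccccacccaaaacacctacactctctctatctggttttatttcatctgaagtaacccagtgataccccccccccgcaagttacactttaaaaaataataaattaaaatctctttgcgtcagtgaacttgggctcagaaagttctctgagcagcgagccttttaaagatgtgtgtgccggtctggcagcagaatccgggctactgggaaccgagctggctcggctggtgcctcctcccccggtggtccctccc
Abcc9: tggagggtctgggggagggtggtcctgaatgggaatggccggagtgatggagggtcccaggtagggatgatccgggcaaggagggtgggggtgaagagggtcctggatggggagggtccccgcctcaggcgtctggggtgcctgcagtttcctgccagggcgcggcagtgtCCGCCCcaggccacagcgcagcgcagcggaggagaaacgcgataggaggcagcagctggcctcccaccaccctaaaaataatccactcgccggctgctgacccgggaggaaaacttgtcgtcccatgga

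The other 43 genes were neither called in a comparison nor reached 5 CPM on average in a population, and 18 of these had passed the filter. They included *Kcna4*, *Kcna6*, *Kcng1*, *Kcnh6*, *Kcnj10*, *Kcnj15* and *Kcnrg*, whose highest population means ranged from 2.75 CPM in *Kcna4* to 4.05 CPM in *Kcna6*. For these genes the depth limits the statement. The number that 0 observed counts allows, 3 counts, corresponded to between 0.142 and 1.04 CPM depending on the library. A library with 0 counts therefore does not exclude levels up to this limit. Counting error alone is covered by this limit.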

How the data were processed

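The deposited estimated count of each transcript and the deposited TPM had been made by the authors, who per their processing notes checked reads with FastQC 0.11.2, trimmed them with Trim Galore 0.4.0 and quantified them with kallisto 0.42.5 on mm10 (GRCm38). Libraries had been made with the Ovation Ultralow V2 kit and read as 50 base single reads. Estimated counts were summed to genes by symbol, where 97116 of 98492 transcripts matched, holding 97.8 to 99.2% of the counts of a library, and were rounded. Genes with 6 counts in 3 libraries were tested with edgeR 4.0.16 (quasi-likelihood, TMM) in R 4.3.3, in 1 model of 30 libraries and 10 populations, with Benjamini-Hochberg adjustment in each comparison over all genes tested. DESeq2 1.42.0 served as alternative. The code was tested on simulated data. The 93 genes and all lists of partners, markers and motifs were chosen with earlier results of these data known. Genes with a mean of 5 CPM in a population or a call are given by value, the others by number, and some of the 93 genes are counted but not reported here. Levels are means ± SD of 3 libraries, and log2 differences are given ± SE. Alternatives tried were each tissue alone, other fold thresholds, filters and normalization, a replicate block, length-scaled counts, protein-coding transcripts only, DESeq2, a fit of the compared populations only, and leaving out each library. Where a population had at most 3 counts in each library, a bound against 3 counts or the levels are given in place of a fitted fold.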

Additional observations from a re-analysis of the deposited data

Results flagged for a closer look

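Whether a difference between subsets itself differed between SI and colon was tested in edgeR, and 6 of the called channel genes are given. For PDGFRα hi against Fgfr2+ FB, the log2 value was 5.23 for *Kcnk2* (adjusted p = 0.00201), which was higher in PDGFRα hi FB of the SI and lower in those of the colon. For *Kcns3* it was -8.19 (adjusted p = 0.0379), a fitted value that rests on at most 2 counts per library in SI PDGFRα hi FB and is therefore not a size, and it was not called in 11 of 12 fits without 1 library (adjusted p 0.0656 to 0.143) or with the replicate number as a block (0.0503). For pericytes against FB, the values were -6.20 for *Kcnh2* (adjusted p = 0.0248), -4.39 for *Kcnk3* (adjusted p = 0.0235), -2.10 for *Kcnmb1* (adjusted p = 0.0135) and -1.75 for *Kcnn3* (adjusted p = 0.0427). The call of *Kcnh2* was lost in 3, of *Kcnk3* in 2, of *Kcnmb1* in 0 and of *Kcnn3* in 13 of 27 fits without 1 library. That of *Kcnn3* was also lost with the replicate number as a block (adjusted p = 0.0646) and with length-scaled counts (-0.751), and its sign turned with protein-coding transcripts alone (2.58), so no common direction is drawn from the 4. In the test of pericytes against FB, 3 of the 7 SMC, 2 of the 7 pericyte and 1 of the 7 haematopoietic markers were called lower. Of the 6 FB markers 2 were called higher, and of the 6 endothelial markers 1. The part of these markers was not tested. In every one of these tests, the tissue cannot be told apart from the gates of the FB.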

How the results depend on the processing

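The number of called channel genes moved with the setting, and the cause was not tested. Without a fold threshold the CD81 comparison had 7 in place of 4, and PDGFRα hi against Fgfr2+ FB had 4 in the SI alone and 4 in the colon alone in place of 8. Without the count filter Fgfr2+ FB of the tissues differed in 4 in place of 2. Length-scaled counts gave 3 for pericytes of the tissues in place of 5 and 1 for Fgfr2+ FB. DESeq2 gave 9, 7 and 7 for pericytes, Fgfr2+ FB and the CD81 comparison, and 12 in place of 5 for the dependence of pericytes on tissue. A fit of only the populations compared gave 0 for pericytes and 9 in place of 5 for PDGFRα hi FB of the tissues. Leaving out 1 library gave 1 (without replicate 1 of SI pericytes) to 5 (without replicate 3) for pericytes of the tissues and 3 to 6 (the same libraries) for their dependence on tissue. It gave 2 to 5 for the CD81 comparison (replicates 2 and 3 of colonic CD81+ FB), 1 to 4 for Fgfr2+ FB (replicate 2 of the colon and 3 of the SI) and 1 to 2 for the dependence of PDGFRα hi FB on tissue (replicate 1 of colonic and of SI Fgfr2+ FB). The sign turned for *Kcnip2* (0.378) in pericytes against FB in the SI alone, and for the dependence of *Kcnn3* on tissue (2.58) with protein-coding transcripts only, an alternative chosen after the data had been seen. The paper has the subsets of both tissues sorted from the same mice, but the labels do not say whether replicate numbers mark the mouse. With the number as a block the dependence of PDGFRα hi FB had 1 call, and residuals of libraries with the same number correlated by 0.00754 on average over 135 pairs, against -0.00342 for different numbers, while 18 of 30 libraries correlated best with a library of their own number. The dependence of *Kcnn3* on tissue was not called with the block (adjusted p = 0.0646). The highest population stayed the same for 42 of 48 genes without TMM and for 41 with TPM. Over all genes, DESeq2 called 2407 for pericytes of the tissues and 814 for Fgfr2+ FB, where edgeR called 1003 and 255.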
